A study of Mus musculus with 3 samples.

Results

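The cells described here were cultured bone marrow cells that carried Aldh1a2, the gene for a retinal dehydrogenase that makes retinoic acid, with MHC class II and almost no Ccr7. They were chosen by their own counts: at least 2 UMIs (unique transcript molecules) of Aldh1a2, at most 1 of Ccr7, at least 5 of H2-Aa, and S100a8 with S100a9 under 2% of gene UMIs. The rule found 86 members among 16082 cells kept from the untreated and VD3 cultures. The untreated culture gave 67 of 7257 kept cells, or 0.923% (exact Clopper-Pearson 95% interval 0.716 to 1.17), and the VD3 culture 19 of 8825, or 0.215% (0.130 to 0.336).

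The study followed human skin scaffolds under the skin of mice and then asked whether vitamin D gives cultured macrophages the Trem2 state found there. Marrow of C57/BL6 mice was cultured with GM-CSF, and on day 7 some dishes received 1 μM VD3 for 24 h while the others stayed untreated. Each condition was 1 droplet library, named Co-Mac and VD-Mac in the study, so no value below has a replicate check, and the treatment cannot be told apart from other differences between the 2 libraries. The kept cells held 132574308 gene UMIs in the untreated and 116461484 in the VD3 library, with medians of 15804 and 12089 per cell. The members held 1985580 and 287699 UMIs, so that 1 UMI stood for 0.504 CPM (UMIs scaled to a common total) in untreated members and 3.48 CPM in VD3 members. The cultures shared 15 kept barcodes, none of them a member.

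Retinal dehydrogenases turn vitamin A aldehyde into retinoic acid, and dendritic cells that carry them are known for steering T cells toward regulatory and gut-homing fates. Ccr7 is the receptor that takes mature dendritic cells to lymph nodes. Active vitamin D binds the receptor Vdr, which pairs with a retinoid X receptor on DNA, so the vitamin A and vitamin D pathways share a partner protein.

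Most Aldh1a2 cells in these cultures were Ccr7 cells. Of 1180 untreated cells with at least 2 Aldh1a2 UMIs, 1108 (93.9%) carried more than 1 Ccr7 UMI, and in the VD3 culture 515 of 540 did (95.4%). The members were the small remainder. All Aldh1a2 cells together made up 16.3% of the untreated and 6.12% of the VD3 cells, so the lower share in the VD3 culture was seen with and without Ccr7. Among members, Ccr7 was at 0 UMIs in 46 untreated and 14 VD3 cells and at 1 in 21 and 5. Aldh1a2 ran from 2 to 40 UMIs per untreated member with a median of 7, and from 2 to 8 with a median of 3 in VD3 members. At least 10 Aldh1a2 UMIs were found in 27 untreated and 0 VD3 members.

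**Figure D1:**
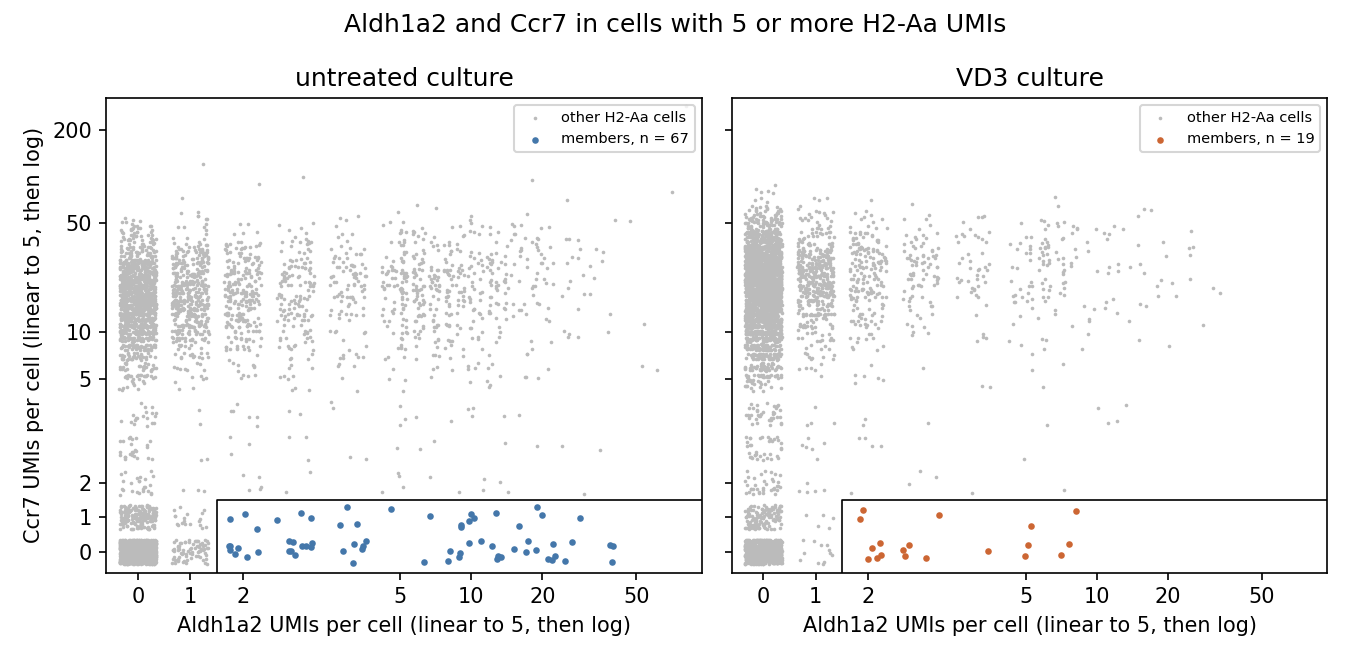
Aldh1a2 UMIs (x axis) against Ccr7 UMIs (y axis) per cell, both linear to 5 and then logarithmic, for cells with at least 5 H2-Aa UMIs and S100a8 with S100a9 under 2%; points are spread slightly at random, and the line bounds the members. The 67 untreated members reach 40 Aldh1a2 UMIs and the 19 VD3 members reach 8.

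Levels on either side of the thresholds were alike in some genes and not in others. Just outside the Aldh1a2 limit stood 96 untreated and 17 VD3 cells with 1 UMI, and just inside it 10 and 7 members with 2. Nr4a3 stood at 21.5 CPM in the 96 untreated cells with 1 Aldh1a2 UMI and at 29.0 CPM in the 10 members with 2, while Ccl22 stood at 116 and 401 CPM, Cacnb3, a calcium channel subunit of mature dendritic cells, at 15.4 and 80.3 CPM, Fscn1 at 8.47 and 51.3 CPM, and Clu at 0 and 17.8 CPM. In the VD3 culture the order differed by gene: outside and inside, Nr4a3 stood at 121 and 103 CPM, Fscn1 at 95.7 and 57.3 CPM, Clu at 73.4 and 0 CPM, Cacnb3 at 153 and 195 CPM, and Ccl22 at 412 and 813 CPM. Just outside the Ccr7 limit stood 18 and 6 cells with 2 UMIs. Ccl17 was at 7963 CPM in untreated members with 1 Ccr7 UMI and at 3477 CPM in the cells with 2, whereas in the VD3 culture it was at 831 CPM in the 5 members with 1 and at 8620 CPM in the 6 cells with 2, so the order at this limit was not shared.

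The marker genes of the name were compared with the data. Aldh1a2, which chose the members, stood at 346 CPM in untreated and 247 CPM in VD3 members. Nr4a3, an orphan nuclear receptor induced by activation, was at 244 and 167 CPM, against 13.8 and 8.16 CPM in H2-Aa cells that had no Aldh1a2 UMI and at most 1 of Ccr7. Pou4f1, a POU-domain transcription factor, was at 30.2 and 125 CPM in members and at 0.81 and 3.40 CPM in those H2-Aa cells. Clu, the secreted chaperone clusterin, was at 51.9 and 20.9 CPM, and its 6 UMIs in VD3 members all came from 1 cell. Cells with both Ccr7 and Aldh1a2 had as much or more of these genes, with Nr4a3 at 274 and 185 CPM, Pou4f1 at 62.4 and 176 CPM and Clu at 80.5 and 68.1 CPM. Nr4a3 and Pou4f1 were thus higher in both sets of Aldh1a2 cells than in those H2-Aa cells, and were not particular to the members. All 2769 and 3468 Ccr7 cells together, with a median of 1 and 0 Aldh1a2 UMIs, had Nr4a3 at 201 and 116 CPM. They include the 1049 and 491 cells with both genes, so the level in Ccr7 cells without Aldh1a2 was not separated.

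Per cell, these markers were not universal. Of 67 untreated members, 17 carried none of Nr4a3, Pou4f1 and Clu, and 8 carried all of them. Of 19 VD3 members, 5 carried none and 1 carried all. Nr4a3 and Pou4f1 occurred together: 23 of the 24 untreated members with Pou4f1 also had Nr4a3, and 8 of the 10 in the VD3 culture. A Nr4a3 UMI was found in 71.6% of untreated members (median depth 22691 UMIs) and 63.2% of VD3 members (15265 UMIs). When each cell is taken at 5000 UMIs, the expected shares for Nr4a3 are 53.3% and 46.1%. In cells rich in S100a8 and S100a9, 2.96% and 1.78% had a Nr4a3 UMI at median depths of 8525 and 8157, or 1.15% and 0.663% at 5000 UMIs. Pou4f1 was found in 35.8% of untreated and 52.6% of VD3 members, or 15.2% and 30.7% at 5000 UMIs, and in none of those S100-rich cells. Clu was found in 28.4% and 5.26% of members, or 14.7% and 3.85% at 5000 UMIs. The S100-rich cells had Clu in 11.3% and 4.98%, or 5.97% and 2.93% at 5000 UMIs. Its share in VD3 members was thus near that of the S100-rich cells.

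The dendritic identity in the name held in part. Cd74, the class II invariant chain, was at 12594 and 11641 CPM, and the integrin Itgax, which encodes CD11c, at 247 and 156 CPM. Zbtb46, a transcription factor of classical dendritic cells, was at 17.1 and 34.8 CPM, against 18.8 and 25.4 CPM in all other kept cells. Flt3, the growth factor receptor of dendritic precursors, was at 1.01 and 0 CPM, and the lectin Cd209a at 0 in both. Of 12 dendritic markers, 11 had a UMI in untreated and 9 in VD3 members, summing to 17905 and 14689 CPM with Cd74 the most abundant. This list holds H2-Aa, which the rule required in every member, so its count and sum were partly set by the rule. Xcr1 and Cadm1 of cross-presenting dendritic cells and Siglech of plasmacytoid cells were at 0, although their lists summed to 453 and 396 CPM and to 158 and 226 CPM through the widely expressed Irf8, Naaa and Bst2. Both Flt3 and Cd209a were also scarce in cells with both Ccr7 and Aldh1a2, where Flt3 was found in 1.91% and 0.407% of cells and Cd209a in 0.572% and 0%. Their low levels were thus not particular to the members. With Flt3 and Cd209a at or near 0, the members are called Aldh1a2 cells below.

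Genes of dendritic maturation were present at mixed levels, the 10 of the list summing to 11331 and 9155 CPM with Ccl17 the most abundant. The list includes Ccr7, which the rule limited. Ccl22, a chemokine that draws Ccr4-bearing T cells, stood at 1851 and 928 CPM in members, between the 58.5 and 81.3 CPM of H2-Aa cells without Aldh1a2 and the 2704 and 1564 CPM of cells with both Ccr7 and Aldh1a2. The phenylalanine oxidase Il4i1 lay in the same order, at 269 and 469 CPM in members and 460 and 903 CPM in the cells with both. Fscn1, the actin bundler of mature dendritic cells, reached 64.5 and 83.4 CPM in members against 359 and 213 CPM. Ccl17, which shares a receptor with Ccl22, went the other way: 8013 and 6239 CPM in members and 2593 and 1933 CPM in the cells with both. The Ccl17 sum of VD3 members was uneven, with a median of 13 UMIs per cell and 491 of 1795 UMIs in 1 cell.

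**Figure D2:**
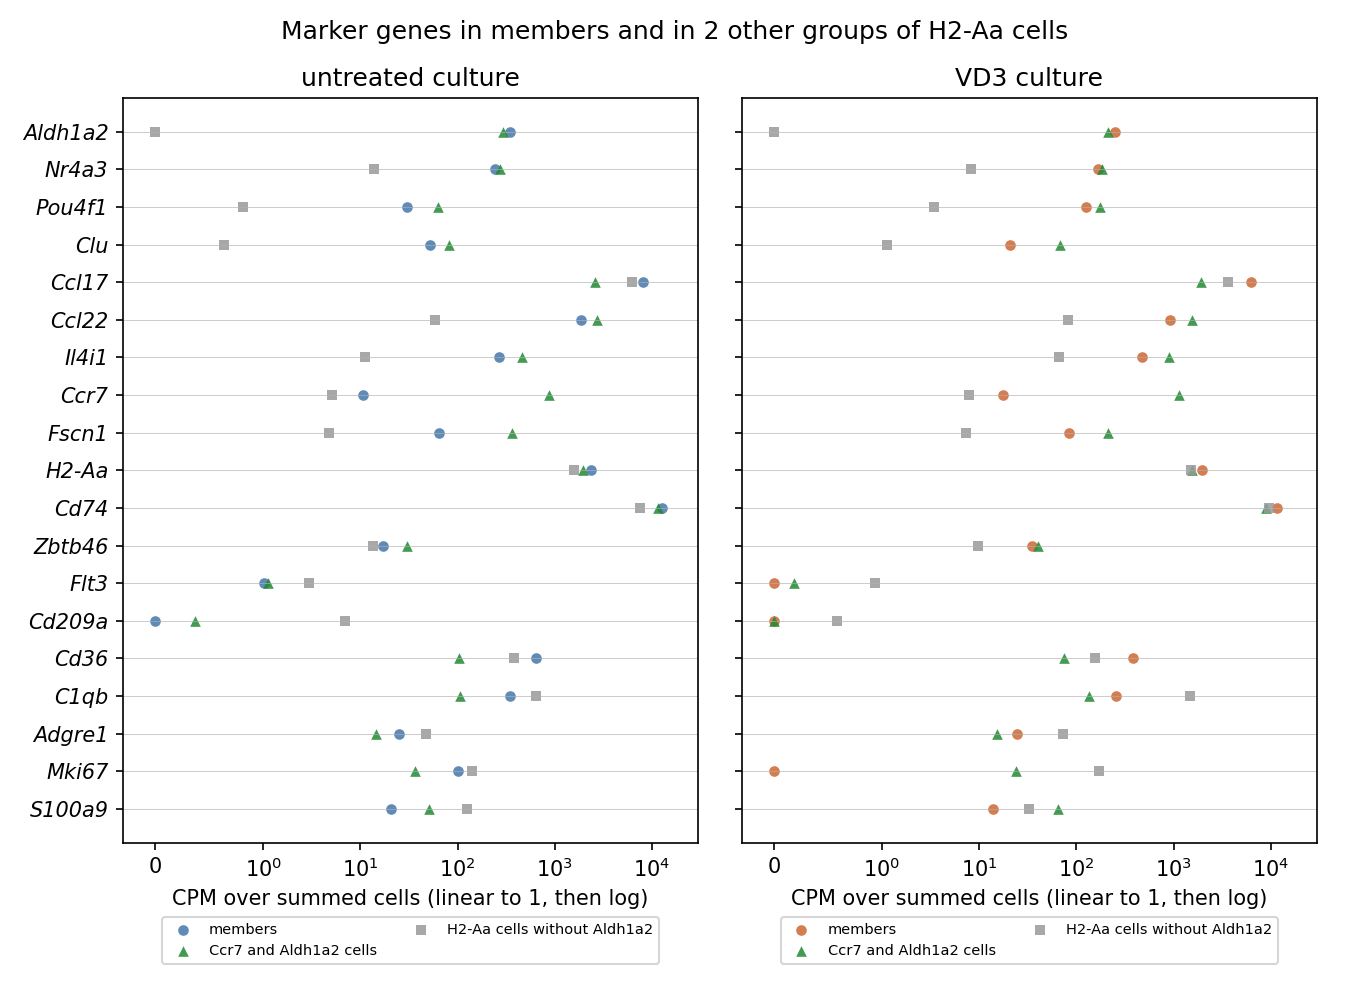
CPM over summed cells (x axis, linear to 1 and then logarithmic) of marker genes in members (circles), in cells with both Ccr7 and Aldh1a2 (triangles) and in H2-Aa cells without Aldh1a2 (squares), for each culture. Members lie near the triangles for Nr4a3 (244 against 274 CPM untreated) and on the far side of the squares for Ccl17 (8013 against 6233 CPM).

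Genes of other cell types were weighed by their whole lists. The 11 macrophage markers summed to 1094 CPM in untreated and 841 CPM in VD3 members, with the complement gene C1qb highest at 346 and 257 CPM. Their sums were 1046 and 1223 CPM in the other kept cells, and 1976 and 3620 CPM in H2-Aa cells without Aldh1a2. Cells with both Ccr7 and Aldh1a2 had sums of 398 and 416 CPM, below those of the members. The 12 neutrophil markers summed to 193 and 115 CPM, against 5454 and 6379 CPM in the other kept cells. The limit on S100a8 and S100a9 took out 0 cells that met the rest of the rule. The 6 monocyte markers summed to 812 and 48.7 CPM, led by the matrix gene Fn1 at 329 and 38.2 CPM, and to 1003 and 139 CPM in the other kept cells, so the lower level was not particular to the members. The 5 proliferation markers summed to 486 and 41.7 CPM, against 591 and 500 CPM in the other kept cells, and Mki67 was at 0 in VD3 members. Markers of B, T, NK, erythroid, mast and stromal cells and of eosinophils were at or near 0, the largest sum being 10.6 CPM. Cycling and monocyte genes therefore differed between the cultures. Calls without cycling members are given with the cell cycle genes below, and the part of the monocyte genes was not tested.

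Untreated members were not uniform, and their Aldh1a2 level ordered other genes. From members with 2 Aldh1a2 UMIs to those with 10 or more, Nr4a3 stood at 29.0, 130, 310 and 476 CPM, and Ccl22 at 401, 1330, 2308 and 3175 CPM. The macrophage gene C1qb went down over the same bins, at 829, 340, 238 and 62.8 CPM, and the topoisomerase Top2a of dividing cells at 299, 142, 72.0 and 55.4 CPM. The fatty acid receptor Cd36 kept to 510.5 to 783 CPM throughout. The 10 members with 2 UMIs were also the deepest, with a median of 45147 UMIs against 21544 in the 27 with 10 or more. Il4i1 stood at 33.4, 183, 207 and 533 CPM. Over the 3 bins that held VD3 members, Nr4a3 was at 103, 204 and 188 CPM and Il4i1 at 424, 515 and 470.5 CPM, so the steps were smaller there. These orders follow the gene that chose the cells and are descriptions.

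**Figure D3:**
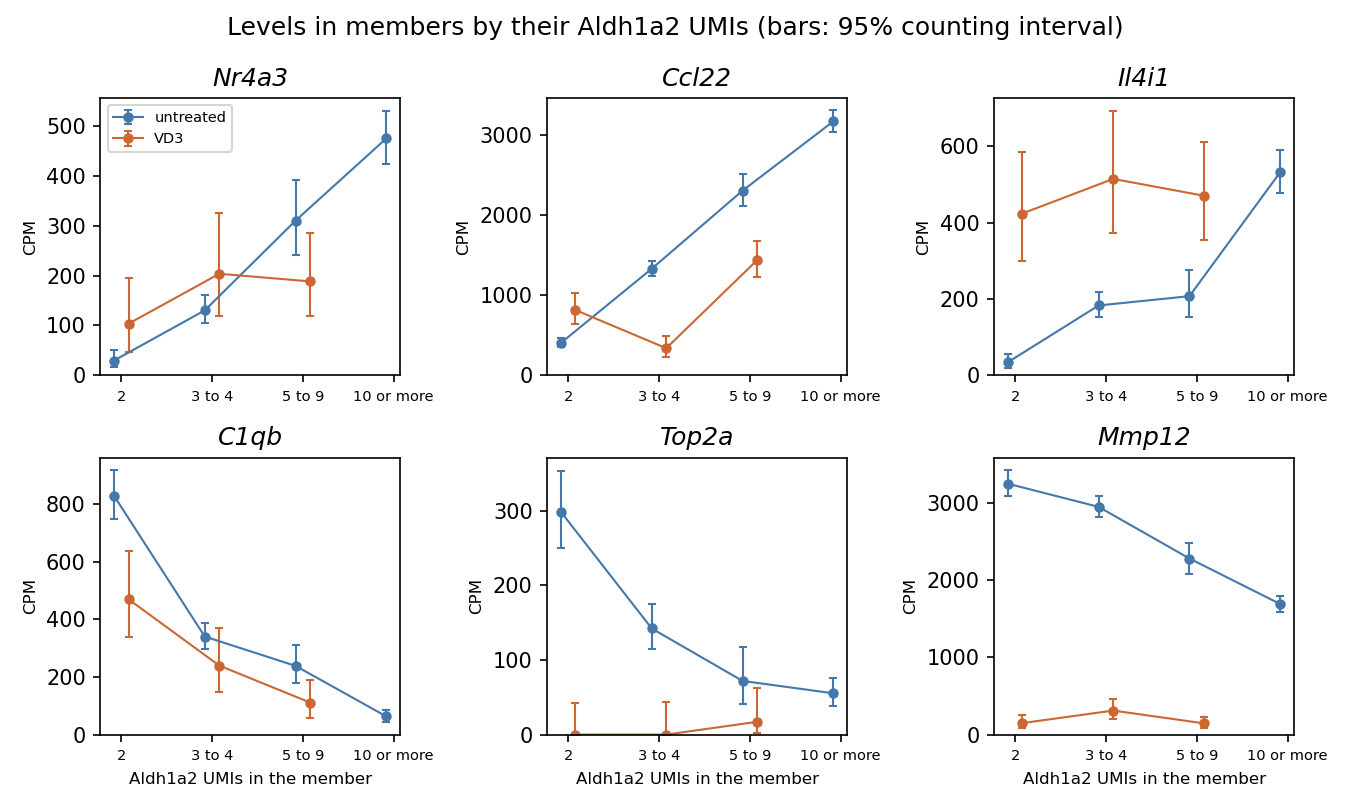
CPM (y axis) of 6 genes in members grouped by their Aldh1a2 UMIs (x axis), untreated in blue and VD3 in orange, with exact Poisson 95% counting intervals. Nr4a3 runs from 29.0 to 476 CPM in untreated members while C1qb runs from 829 to 62.8 CPM, and VD3 members have no cell in the last bin.

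Beyond the genes of the rule, several genes of varied kind stood higher in members than in all other kept cells of their own culture, and some of them were shared with the cells most like the members. Cd36, a scavenger receptor for fatty acids, was at 647 CPM in untreated members and 386 CPM in VD3 members, a log2 ratio over the other cells of 1.89 and 2.67, and at 379 and 155 CPM in H2-Aa cells without Aldh1a2. Of its 111 UMIs in VD3 members, 50 came from 1 cell. Pdcd1lg2, the checkpoint ligand PD-L2, was at 138 and 79.9 CPM, with log2 ratios of 1.52 and 2.11. The kinase gene Stk39 had log2 ratios of 2.00 and 1.74, and the lysosomal phospholipase Pla2g15 1.36 and 2.01. Pla2g15 was at 94.7 and 132 CPM in members and at 86.4 and 88.8 CPM in cells with both Ccr7 and Aldh1a2, so in the untreated culture the levels were alike. Acp5, the tartrate-resistant acid phosphatase, had 1.35 and 2.64. Among the secreted products, Ccl17 stood 1.42 and 2.21 above the other cells on the log2 scale. In VD3 members, 491 of its 1795 UMIs came from 1 cell, and the median was 13 UMIs per cell against 172 in untreated members. Wfdc17, a small secreted protein of activated macrophages, was at 2106 and 2190 CPM with 1.07 and 1.79, against 1893 and 1434 CPM in H2-Aa cells without Aldh1a2. The actin-binding gene Rai14 had 1.81 and 1.71, the small membrane protein gene Pdzk1ip1 2.63 and 1.05, the protein degradation regulator Svip 1.24 and 1.46, the membrane protein gene Tmem131 1.17 and 1.10, the protease inhibitor Serpina3g 1.07 and 1.87, and the scaffold gene Ahnak 1.06 and 1.23. Some of these were also near the levels of cells with both Ccr7 and Aldh1a2: Serpina3g was at 55.9 CPM in untreated members and 59.8 CPM there, Tmem131 at 98.2 and 163 CPM against 78.8 and 138 CPM, and Pdzk1ip1 in the VD3 culture at 59.1 against 55.7 CPM. Cd36 was found in 89.6% and 73.7% of members and in 0.985% and 1.07% of the S100-rich cells, or 71.3% and 49.3% against 0.331% and 0.526% at 5000 UMIs.

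Between cultures, the members differed in both directions. Of 8066 genes with at least 10 CPM in either culture, 328 (4.07%) were called higher in VD3 members and 760 (9.42%) lower, a call being a 2-fold or larger difference whose counting interval excludes 1. Counts of calls in gene lists stand beside these shares of all genes. The median log2 ratio, VD3 over untreated, was -0.21, and it was -0.09 in the other kept cells; with mitochondrial UMIs limited to 5% (15 and 5 members) it was 0.43, so its sign depends on that limit. Centred on the median of well-expressed genes, a shift of -0.19, the calls were 482 higher and 509 lower, so the size of the surplus of lower calls depends on the scaling. Of the genes called higher, 86 were also called higher in the other kept cells (26.2%), and of those called lower 182 (23.9%), where calls over all 7737 genes tested in those cells made up 2.16% and 4.61%. None was called in the opposite direction there. The VD3 side rests on 19 cells, and 21 of the higher calls had over 50% of their UMIs in 1 cell. When the member with most UMIs of the gene in the higher culture was left out, 111 genes were called higher and 555 lower.

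The vitamin D receptor and its best-known target were higher. Of 9 tested genes of their list, 3 were higher (Cyp24a1, Vdr and Spp1), beside 4.07% of all genes, and 1 was lower, with a median log2 ratio of -0.32 beside the -0.21 of all genes. Cyp24a1, the enzyme that inactivates vitamin D and the receptor's classical target, had 0 UMIs in untreated members and 64 in VD3 members, or 222 CPM. With the 0 set to 3 UMIs it was 147-fold higher (log2 7.20), and the lower limit of its interval was 6.86. It came from 6 of the 19 cells, and 37 of the 64 UMIs from 1 of them. Its share of 31.6% (27.5% at 5000 UMIs) lay below the 73.1% (66.8%) of VD3 H2-Aa cells without Aldh1a2 and near the 34.0% (19.9%) of VD3 cells with both Ccr7 and Aldh1a2, and the S100-rich cells had it too, in 33.5% (39.7%). Vdr itself was at 63.0 and 212 CPM, a log2 ratio of 1.75 (1.29 to 2.20), and a Vdr UMI was present in 17 of 19 VD3 members. Of the 6 Cyp24a1 cells, 5 had a Vdr UMI and 3 a Nr4a3 UMI. The thioredoxin inhibitor Txnip was at 84.1 and 24.3 CPM (log2 -1.79), a call lost under 4 of 19 other settings, among them leaving out cycling members.

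Few retinoid genes were abundant enough to test. Of 25 genes on the list, 6 were tested, 1 was higher and 1 lower, too few calls to set the list apart, and the median log2 ratio was -0.56. Aldh1a2 in members had a log2 ratio of -0.49, close to the -0.49 in cells with both Ccr7 and Aldh1a2; since the rule used this gene, the value is a description. Rxrb, a retinoid X receptor, was at 14.1 and 41.7 CPM (log2 1.56), a call lost under 4 of 19 other settings, among them leaving out the cell with most of its UMIs. Rara, a retinoic acid receptor, was at 39.3 and 13.9 CPM (log2 -1.50), a call lost under 11 of 18 other settings. Aldh1a1 and Aldh1a3, the other retinal dehydrogenases, had 0 UMIs in both.

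The markers in the name did not move together. Pou4f1 was higher in VD3 members, with a log2 ratio of 2.05 (1.41 to 2.67), and was also called higher in cells with both Ccr7 and Aldh1a2, at 62.4 and 176 CPM (log2 1.49). Nr4a3 had a log2 ratio of -0.55 and was not called. Clu was called lower (log2 -1.31), but with Aldh1a2 from 1 UMI the ratio was 1.31, so its direction depends on the limit. Its call was lost under 10 of 19 other settings, among them centring on the median gene and leaving out its top cell. Among 16 tested NR4A and immediate early genes, 1 was higher and 1 lower, with a median of 0.14; the lower one was Egr2, a zinc finger factor, at 98.7 and 38.2 CPM (log2 -1.37). Of 27 dendritic and macrophage transcription factors, 3 were higher and 1 lower, with a median of 0.23. Besides Pou4f1, these higher genes were Irf8, an interferon regulatory factor of dendritic development, at 97.2 and 247 CPM (log2 1.34), and Cebpd at 37.3 and 101 CPM (log2 1.44). The calls of Egr2, Irf8 and Cebpd were lost under 7, 5 and 4 of 19 other settings, Irf8 when its top cell or the cycling members were left out.

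The genes with the largest ratios were of varied kind. Gdf15, a stress-induced cytokine of the TGF-beta family, was at 5.04 CPM in untreated and 278 CPM in VD3 members (log2 5.79), and its ratio in the other kept cells was 5.16. Hbegf, an EGF-like growth factor, was at 1.51 and 69.5 CPM (log2 5.52, interval 3.77 to 7.92), spread over 8 VD3 cells, and its ratio in the other kept cells was 4.08. Both therefore rose in the members and in the culture at large. C3, the central complement protein, was at 102 and 504 CPM (log2 2.30). It had a UMI in 39 of 67 untreated and 9 of 19 VD3 members, and 52 of its 145 VD3 UMIs came from 1 cell. Pdcd4, an inhibitor of translation, was at 89.6 and 438 CPM (log2 2.29). Scd1, the desaturase that makes oleic acid, was at 34.3 and 177 CPM (log2 2.37), with a UMI in 14 of 19 VD3 members. The class I relatives H2-Q4 and H2-Q6 had log2 ratios of 2.62 and 2.39, with the caution that near-identical genes of this family can share reads.

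Further genes followed. The lysophosphatidic acid receptor Lpar6 had a log2 ratio of 2.58, the scaffold gene Tanc1 2.41, the Myc antagonist Mxd1 2.28, the Ras regulator Rasa4 2.20 and the tripartite-motif gene Trim16 2.70. Rnaset2a, a lysosomal ribonuclease with a close copy in the genome, had 2.65, but 32 of its 62 VD3 UMIs came from 1 cell. Saa3, an acute-phase serum amyloid, had 2.36, with 38 of 43 VD3 UMIs in 1 cell, and without the cell with most of them its ratio was -0.75.

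Lectins were the most uniformly lower list among surface genes. Of 11 tested, 0 were higher and 9 lower, with a median log2 ratio of -2.26, and the same median in the other kept cells was -2.16. Mgl2, a galactose-binding lectin of type 2 dendritic cells, went from 534 to 10.4 CPM (log2 -5.68, interval -7.96 to -4.13), with a UMI in 51 of 67 untreated and 1 of 19 VD3 members. Clec4a2, an inhibitory lectin receptor, was at 127 and 10.4 CPM (log2 -3.61). Clec4n, which binds fungal mannans as Dectin-2, was at 1646 and 726 CPM (log2 -1.18), a call lost under 4 of 19 other settings, among them centring on the median gene and leaving out cycling members.

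Class II genes were lower in part. Of 12 tested class II and processing genes, 0 were higher and 5 lower, beside 4.07% and 9.42% of all genes, with a median of -0.91. Ciita, the master activator of class II transcription, was at 98.2 and 17.4 CPM (log2 -2.50), the beta chain gene H2-Ab1 at 1899 and 584 CPM (log2 -1.70), and the peptide-loading gene H2-DMb1 at 252 and 45.2 CPM (log2 -2.48). Cd74 had a log2 ratio of -0.11 and was not called. H2-Aa was at 2382 and 1981 CPM (log2 -0.27), but the rule required it in every member, so its ratio cannot be set against that of the beta chain. H2-M2, a class I relative, was at 380 and 10.4 CPM (log2 -5.19). Of 13 costimulatory and checkpoint genes, 0 were higher and 2 lower, beside 4.07% and 9.42% of all genes, with a median of -0.23; so few calls do not set this list apart. One of these was Cd200r1, an inhibitory receptor, at 106 and 17.4 CPM (log2 -2.61). Cd274, which encodes PD-L1, was at 142 and 264 CPM (log2 0.90) and Pdcd1lg2 had a log2 ratio of -0.79, neither of them called.

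Matrix and lipid genes of macrophages moved both ways. Of 21 tested lipid-handling and repair genes, 4 were higher and 5 lower, beside 4.07% and 9.42% of all genes, with a median of -0.43. Mmp12, the macrophage elastase, fell from 2519 to 195 CPM (log2 -3.69), and Lpl, which releases fatty acids from lipoproteins, from 1746 to 361 CPM (log2 -2.27). Lgals3, the galectin of phagocytes, was at 6995 and 14206 CPM (log2 1.02), Trem2, a lipid-sensing receptor, at 166 and 334 CPM (log2 1.01), and the cholesterol exporter Abca1 at 20.1 and 48.7 CPM (log2 1.27). When the VD3 member with most UMIs of the gene was left out, none of Lgals3, Trem2 and Abca1 was called. Gpnmb, a glycoprotein of lysosome-rich macrophages, was at 141 and 334 CPM (log2 1.25), yet 67 of its 96 VD3 UMIs came from 1 cell. Spp1, which encodes osteopontin, was at 500.1 and 1189 CPM (log2 1.25), with 172 of 342 VD3 UMIs in 1 cell, and its call was lost under 5 of 19 other settings, among them leaving out that cell. The cholesterol and fatty acid synthesis list had 23 tested genes, 1 higher and 7 lower, with a median of -0.69. Its higher gene was Scd1; Acly, which makes acetyl-CoA from citrate, was at 78.1 and 13.9 CPM (log2 -2.49), and the regulator Srebf2 at 54.4 and 13.9 CPM (log2 -1.97), the latter call lost under 4 of 19 other settings, among them leaving out cycling members.

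Among secreted signals, Ccl17 had a log2 ratio of -0.36 and was not called, nor was Ccl22, which lay just short of the 2-fold limit. Per member, Ccl17 had a median of 172 UMIs untreated and 13 with VD3, at median depths of 22691 and 15265 UMIs. The 13 tested chemokine genes gave 1 higher and 2 lower calls, near the 4.07% and 9.42% of all genes, with a median of -0.56. The lower ones included the platelet chemokine Ppbp at 109 and 13.9 CPM (log2 -2.97). Of its 217 untreated UMIs, 148 came from 1 cell, and the call was lost when that cell was left out. The 15 tested cytokine genes gave 3 higher and 3 lower calls, beside the same shares, with a median of -0.38. Il15, a growth factor for NK and memory T cells, was at 7.55 and 48.7 CPM (log2 2.69), and Tgfbi, a secreted matrix protein induced by TGF-beta, at 251 and 24.3 CPM (log2 -3.37).

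Most of the cell cycle list was lower. Of 20 tested genes, 0 were higher, 16 lower and 4 not called, with a median of -2.21 against -0.32 in the other kept cells. Top2a went from 141 to 6.95 CPM (log2 -4.34), the PCNA-binding factor Pclaf from 147 to 3.48 CPM (log2 -5.40), the spindle gene Birc5 from 92.2 to 6.95 CPM (log2 -3.73) and the tubulin regulator Stmn1 from 217 to 17.4 CPM (log2 -3.64). The nuclear lamina gene Tmpo had -3.72. These calls were not stable: those of Top2a, Birc5 and Stmn1 were lost with Aldh1a2 from 1 UMI and with no Ccr7 limit, that of Tmpo under 5 of 19 settings, and that of Pclaf under 2 of 18. An Mki67 or Top2a UMI was present in 29 of 67 untreated and 2 of 19 VD3 members. Without those cells the calls were 348 higher and 283 lower, so the number of lower calls depended on whether these cells were included. The calls of Birc5, Stmn1 and Tmpo were lost without them. Those cells were chosen by cell cycle genes, so these losses are no separate check. Of the 21 untreated members with a UMI of the macrophage gene C1qa, 13 also had Top2a.

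Other genes with very small ratios were single products of varied kind. Ccdc80, a matrix protein, had a log2 ratio of -4.43, the coagulation factor gene F7 -4.24, the ectoenzyme Bst1 -4.14, the arginine transporter Slc7a2 -4.06, the Src-family kinase Fgr -3.87 and the endoplasmic reticulum isomerase Fkbp2 -4.32. Each had 1 UMI in VD3 members. The calls of Fkbp2 and F7 were lost under 5 and 4 of 19 other settings, that of Fgr under 4 of 18, that of Slc7a2 under 2 of 18, and those of Ccdc80 and Bst1 under 2 of 17. Ccdc80, F7 and Slc7a2 had log2 ratios of -4.67, -3.33 and -3.48 in the other kept cells, while Fkbp2 and Fgr had -0.64 and -0.62 there.

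**Figure D4:**
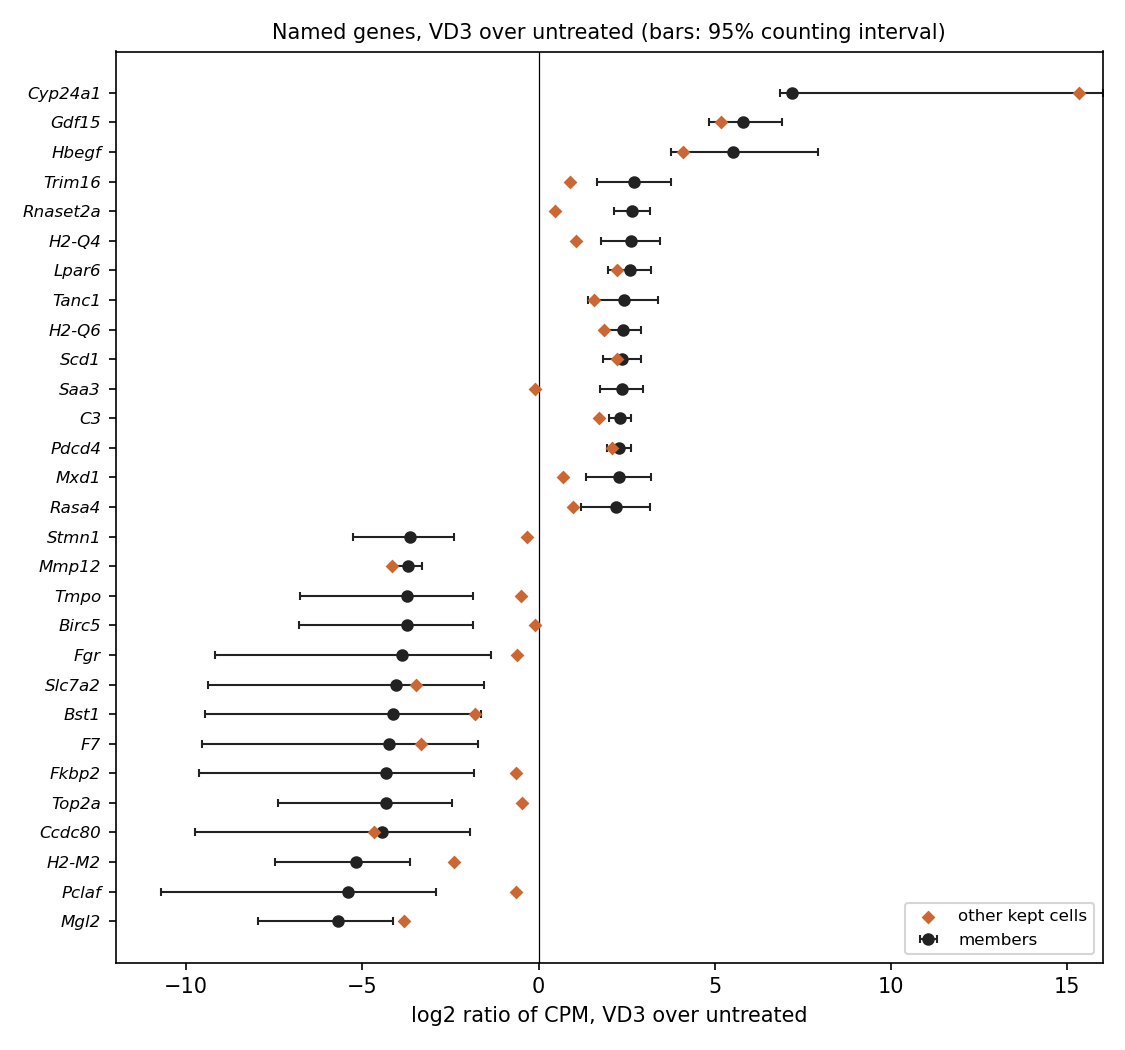
Log2 ratio of CPM, VD3 over untreated (x axis), of 29 of the 30 named genes in members (circles, with exact 95% counting intervals) and in the other kept cells (diamonds); the Cyp24a1 circle is a lower bound. Of the 15 higher genes, 14 also lie above 0 in the other cells, the exception being Saa3 at -0.09, and all 14 lower genes drawn lie below 0 there.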

How the data were processed

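Single cells were captured with the 10x Chromium 3' v3 kit, and the deposited values are raw UMI counts per gene and barcode, made by the authors with Cell Ranger (version 3.1.0 in the matrix header). Cells with at least 300 genes, under 100000 gene UMIs and under 10% mitochondrial UMIs were kept, 7257 of 7866 barcodes untreated and 8825 of 9794 with VD3. A library from tissue was not used here. The members and gene lists were chosen with earlier results of these data known. UMIs were summed over members of each culture and scaled to CPM. Ratios carry exact conditional binomial and levels exact Poisson 95% intervals, which cover counting error only. A culture at 0 UMIs was set to a floor of 3 UMIs and its ratio given as a bound. This bound leaves out the counting error of the other culture. Genes were called at 2-fold and 10 CPM. Named genes were the 15 largest and 15 smallest ratios among calls with at least 50 CPM, leaving out mitochondrial, ribosomal protein and unnamed genes, and the 15 largest ratios of members over other cells in both cultures; some genes these rules name are not reported here. Shares at 5000 UMIs are exact expectations of sampling each cell's UMIs without replacement, computed after a single random draw over 19 cells proved unstable; shallower cells were left out. S100-rich cells had at least 10% of UMIs from S100a8 and S100a9. Python 3.11.15, numpy 2.4.6, scipy 1.17.1, pandas 2.3.3, scanpy 1.11.5 (Scrublet scores) and matplotlib 3.10.9 were used. Only the ratio, its interval and the call were tested on simulated data. Those were summed counts without variation between cells. With 1 library per condition no test between conditions was run. Alternatives covered each limit of the rule, thinning, scaling, the call limits, doublet scores, shared barcodes and Aldh1a2 make-up.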

Additional observations from a re-analysis of the deposited data

Results flagged for a closer look

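In 4 of the 67 called genes followed over other settings, members and the other kept cells of the same cultures moved in opposite directions. Their counting intervals excluded 0 on both sides, and the difference itself was not tested. The cholesterol exporter Abca1 had a log2 ratio of 1.27 in members and -0.14 in the other cells. Ccnb2, a mitotic cyclin, had at most -1.24 and 0.21, and Cenpf, a kinetochore protein, at most -1.67 and 0.39, both with 0 UMIs in VD3 members. The serum amyloid Saa3 had 2.36 and -0.09, with most of its VD3 UMIs in 1 cell. None of these calls held under each other setting: that of Abca1 was lost under 7 of 19, Ccnb2 under 7 of 14, Cenpf under 4 of 14 and Saa3 under 3 of 17.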

How the results depend on the processing

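Of 67 called genes followed over up to 19 other settings, 18 were called in each setting that gave a value, among them Cyp24a1, Hbegf, C3, Pdcd4, Scd1, Ifitm3, Mgl2, H2-M2, Mmp12, Lpl, Itgam and Tgfbi; 24 values were not given because a culture was at 0 UMIs. Members made up 2.25% of untreated and 0.408% of VD3 cells with Aldh1a2 from 1 UMI, and 0.496% and 0.0680% from 5. The shares were 0.634% and 0.159% with Ccr7 at 0, and 0.48% and 0.138% with mitochondrial UMIs under 5%. With no Ccr7 limit, a setting chosen after seeing the data, they were 15.4% and 5.78%. The 760 lower calls became 320 with Aldh1a2 from 5 UMIs. With mitochondrial UMIs under 5% (15 and 5 members) the calls were 140 higher and 294 lower, with a 50 CPM minimum 176 and 430, with no Ccr7 limit 179 and 338, and with members thinned to 5000 UMIs before summing 181 and 239. A 1.5-fold limit gave 495 higher. Also chosen after seeing the data, leaving out cells with Mki67 or Top2a gave 283 lower, and leaving out each gene's top cell gave 111 higher. Cells thinned to 5000 UMIs before the rule gave shares of 1.32% untreated and 0.141% VD3 members, and 173 higher and 318 lower calls. That single draw held 9 VD3 members and gave fewer higher calls than any of 20 further draws, chosen after seeing the data, in which members numbered 62 to 88 and 9 to 19, with 188 to 390 higher and 263 to 538 lower calls. Of the 328 genes called higher, 4 were called lower in the planned draw, 2 under the mitochondrial limit, 1 with Aldh1a2 from 5 UMIs and 1 with no Ccr7 limit, and of the 760 called lower, 2 were called higher with Aldh1a2 from 1 UMI and 1 without Mki67 or Top2a cells. Signs turned in this draw for Gpnmb (-3.90), Spp1 (-1.17) and Rnaset2a (-0.56), which lay below 0 in 7, 3 and 2 of the 20 draws. Signs also turned for Clu (1.31 from 1 Aldh1a2 UMI, 0.33 with no H2-Aa minimum), Spp1 (-0.72, mitochondrial limit), Saa3 (-0.29 from 3 Aldh1a2 UMIs, -0.75 without its top cell), Gpnmb (-0.48, likewise), Birc5 (0.29 without Mki67 or Top2a cells) and Cenpf (0.26 with no Ccr7 limit); the cause was not tested. Scaling without mitochondrial and ribosomal protein genes gave 419 higher and 602 lower. Removing the highest doublet scores took out 15 of 67 untreated members, a larger share than the 457 of all 7257 untreated cells, and 0 of 19 VD3 members, and gave 309 and 696. No paired analysis was possible because each culture is 1 library.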

Other observations

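Counts of calls in further gene lists are given here beside the 4.07% higher and 9.42% lower of all genes tested in members. The 10 tested interferon-stimulated genes gave 2 higher and 0 lower calls with a median log2 ratio of 0.49, beside -0.21 for all genes. Ifitm3, which blocks virus entry at membranes, was at 247 CPM in untreated and 838 CPM in VD3 members (log2 1.76), and its relative Ifitm6 at 0.504 and 27.8 CPM (log2 5.79). The 15 tested glycolysis genes gave 0 higher and 6 lower calls with a median of -0.84. Ldha, which makes lactate, was at 530 and 167 CPM (log2 -1.67), a call lost without cycling members and with no Ccr7 limit, and the phosphofructokinase Pfkp at 306 and 66.0 CPM (log2 -2.21), while Gapdh was at 1586 and 1804 CPM (log2 0.19). The 14 tested pattern and Fc receptor genes gave 0 higher and 5 lower calls with a median of -0.60. Itgam, which encodes CD11b, was at 171 and 13.9 CPM (log2 -3.62), and the Fc receptor chain Fcer1g at 1269 and 542 CPM (log2 -1.23), the latter call lost under 4 of 19 other settings, among them leaving out cycling members. The matrix gene Fn1 was lower as well (log2 -3.10).

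The 8 tested complement genes gave 1 higher call, C3, and 3 lower, with a median of -0.74, and the 10 tested migration receptor genes 0 higher and 5 lower with a median of -1.53. The 7 tested tolerance genes gave 1 higher and 1 lower call with a median of -0.28; the higher gene was Il10ra, a chain of the interleukin receptor for IL-10, at 44.8 and 93.8 CPM (log2 1.07), a call lost under 5 of 19 other settings, among them the mean of per-cell CPM and leaving out its top cell. The 14 VD3 members without a Ccr7 UMI and the 5 with 1 had different levels of several genes: Ccl17 was at 8093 and 831 CPM, Cd36 at 476 and 123 CPM, Mmp12 at 261 and 0 CPM, Ccl22 at 709 and 1566 CPM, Il4i1 at 392 and 694 CPM, and Pou4f1 at 79.3 and 259 CPM. Single VD3 members held 50 of 111 Cd36 UMIs, 26 of 56 Mmp12 UMIs and 491 of 1795 Ccl17 UMIs. The difference between the 14 and the 5 members was not tested. Both cultures looked alike in sex-linked transcripts, with 104528 and 113175 Xist UMIs and at most 1 UMI of each Y-linked gene examined.

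RefSeq promoters of 300 bases (GRCm38.p6) were searched on both strands for a vitamin D receptor type direct repeat, made of any pair of the half-sites AGGTCA (the consensus), AGTTCA or GGTTCA (with T at base 3), GGGTCA (with G at base 1), and GGTTGA or GGGTGA (with G at base 5) with 3 bases between. It was in 41 of 32851 promoters (0.125%). Of the genes called higher, 253 of 328 matched the table, and 0 of their 333 promoters held it; of those called lower, 613 of 760 matched, and 2 of 807 promoters held it, both of 1 gene. The NR4A half-site AAAGGTCA was in 495 of all promoters (1.51%), 79 of 8228 of tested genes (0.960%), 6 of 333 of genes called higher (1.80%) and 11 of 807 of genes called lower (1.36%), and in 0 of the 19 promoters of the 15 genes named for members over other cells, a set too small to read. These letters describe the window and say nothing of the factors.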
